A study of Mus musculus with 6 samples.

Results

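The genes examined here encode the sterol regulatory element-binding proteins (SREBPs) and the proteins that hold, move and cut them: Srebf1, Srebf2, Scap, Mbtps1, Mbtps2, Insig1 and Insig2. They were taken by gene symbol from the deposited expression table, and all 7 were found among its 20673 genes. Their RNA was measured by sequencing of whole liver from wild-type C57BL/6J mice, an inbred strain, with 1 library per liver. Of the livers, 3 came from mice on a regular diet (RD), a standard chow low in cholesterol, and 3 from mice given a diet high in cholesterol (HCD) for 3 days, with no surgery before collection. The HCD also carried cocoa butter, more fat and sodium cholate, a bile salt, on a different base diet, so cholesterol cannot be told apart from these other components in this comparison. The study used adult mice of both sexes, and the labels do not give the sex of each liver.

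SREBPs are made as membrane proteins of the endoplasmic reticulum (ER), where they bind SCAP, an escort protein that senses cholesterol. When ER membranes are low in cholesterol, SCAP carries the SREBP in COPII vesicles to the Golgi, where site-1 protease (encoded by Mbtps1) and site-2 protease (Mbtps2) cut it and free a transcription factor that enters the nucleus. When sterols are plentiful, INSIG1 or INSIG2 holds SCAP and its cargo in the ER. SREBP2, the product of Srebf2, mainly drives cholesterol synthesis and uptake genes, while SREBP1c, the main Srebf1 product in liver, drives fatty acid synthesis genes and is itself transcribed under control of the oxysterol receptor LXR and of insulin. Insig1 is a classical SREBP target, whereas Insig2 in liver has a transcript that insulin lowers.

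The promoters of the genes that form the pairs Srebf1 and Srebf2, and Insig1 and Insig2, are shown because the members of each pair differed in direction between the diets. They are taken from the 250 bases before a transcription start in RefSeq on GRCm38.p6. For a gene with several starts the start furthest downstream whose window holds none of its exons is given, and for the others the bases before the first exon. The Srebf2 stretch thus ends at base -89 and the Insig1 stretch at base -50 from the RefSeq start, and the bases after these are not shown. Positions below are counted from the RefSeq start. Capitals mark the letters of an NF-Y box (CCAAT, or ATTGG on the other strand), an Sp1 box (GGGCGG or CCGCCC), an E-box (CACGTG) or the stretch TCACNCCA, a shortened sterol regulatory element searched for after the sequences had been seen.
Srebf1 (start 3 of 3, chr11:60210472-60210721, minus strand): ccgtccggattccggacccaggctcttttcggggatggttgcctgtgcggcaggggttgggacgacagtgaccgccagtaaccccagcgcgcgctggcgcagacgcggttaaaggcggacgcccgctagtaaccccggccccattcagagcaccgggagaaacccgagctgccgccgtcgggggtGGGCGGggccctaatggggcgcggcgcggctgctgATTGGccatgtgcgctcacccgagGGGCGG
Srebf2 (chr15:82147019-82147180, plus strand): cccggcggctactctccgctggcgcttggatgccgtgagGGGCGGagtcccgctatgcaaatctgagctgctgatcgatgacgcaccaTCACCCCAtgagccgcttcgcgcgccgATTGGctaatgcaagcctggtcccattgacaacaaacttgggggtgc
Insig1 (chr5:28071162-28071362, plus strand): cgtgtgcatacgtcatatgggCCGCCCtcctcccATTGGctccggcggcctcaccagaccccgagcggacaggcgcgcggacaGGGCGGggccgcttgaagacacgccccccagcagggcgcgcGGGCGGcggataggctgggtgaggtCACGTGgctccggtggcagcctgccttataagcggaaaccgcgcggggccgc
Insig2 (start 2 of 3, chr1:121328025-121328274, minus strand): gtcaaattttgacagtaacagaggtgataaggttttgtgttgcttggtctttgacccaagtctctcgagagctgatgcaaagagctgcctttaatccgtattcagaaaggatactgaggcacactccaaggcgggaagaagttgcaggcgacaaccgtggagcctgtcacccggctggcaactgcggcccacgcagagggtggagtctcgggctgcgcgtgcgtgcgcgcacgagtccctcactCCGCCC

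The longer sterol regulatory element core TCACNCCAC was in none of the 12 windows of 250 bases that RefSeq gives for the 7 genes, and in 1.05% of all 32851 promoter windows of that length, on either strand. The shortened form was in the Srebf2 window alone among the members, as TCACCCCA, and in 3.67% of all windows. The TCACCCCA stretch lies 162 to 155 bases before the Srebf2 start, ahead of an NF-Y box 135 to 131 bases before it, a box that 33.8% of all windows hold. The Srebf1 window has an NF-Y box 30 to 26 bases before the start and Sp1 boxes on either side of it, and Sp1 boxes are in 32.7% of all windows. The E-box in the Insig1 window, 101 to 96 bases before the start, is in 6.02% of all windows. The Insig2 window shown has only an Sp1 box among these motifs, and the window of its start 1 has 3 NF-Y boxes. Such matches describe the letters in a window and do not show that a factor binds there.

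The libraries held 13771630 to 23129576 counted reads. Of 13105 genes with enough reads to test, 428 differed between diets at an adjusted p under 0.05 (edgeR quasi-likelihood test, adjusted by Benjamini-Hochberg over all genes tested), which is 3.27%, and genes past that threshold are termed called. The 3 HCD values lay outside the range of the 3 RD values for 27.6% of the genes tested, and 20.9% had an unadjusted p of 0.05 or less. On the same livers DESeq2 called 7.2% of the genes it tested, and limma 1.33% on log2 of FPKM plus 1 and 1.67% on log2 of FPKM plus 0.1. HCD replicate 1 stood apart from the other 5 livers in having 5032 Xist reads and no reads from 4 Y-linked genes, while the others had no Xist reads and 1075 to 2666 reads from those Y-linked genes. By these genes HCD replicate 1 read as a female liver and the other 5 as male, so that sex differed within the HCD group and between the groups. Fold changes of named genes that this liver moved by over 1.5 times, or whose call it changed, are also given without it. In whole tissue, fewer cells of a type and less RNA per cell cannot be told apart.

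All 7 genes passed the filter on low counts. Srebf1 rose, Srebf2 and Insig1 fell, and the other 4 were not called, so that 3 of 7 were called against 3.27% of all genes tested. RD and HCD ranges were apart for 6 of the 7 genes, against 27.6% of all genes tested, and 5 of the 7 had an unadjusted p of 0.05 or less, against 20.9%. With RD replicate 1, 2 or 3 or HCD replicate 2 or 3 left out, or with limma on FPKM, Srebf1 was the 1 gene of the 7 still called. Those fits also called fewer of all genes: 36 of 13380, 51 of 13841 and 146 of 13348 without RD replicate 1, 2 or 3. Without HCD replicate 2 or 3 the counts were 333 of 13811 and 103 of 13804, and limma called 1.33% and 1.67%. Mbtps1 was the gene whose ranges overlapped.

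**Figure D1:**
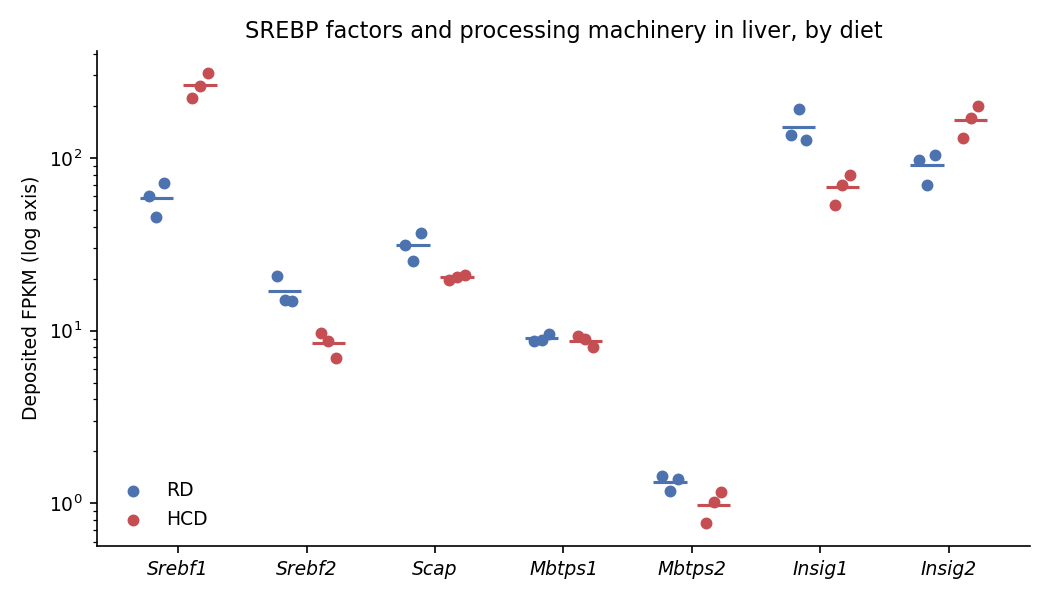
RNA level of the 7 genes in each liver, as deposited FPKM (fragments scaled to gene length and sequencing depth) on a log axis. Points are livers, 3 with RD in blue and 3 with HCD in red, and bars are means. Srebf1 and Insig2 sit higher with HCD, Srebf2, Scap, Mbtps2 and Insig1 lower, and the Mbtps1 points overlap.

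Srebf1 (ENSMUSG00000020538, chr11:60199089-60222581 on GRCm38, minus strand) encodes the SREBP1 precursors. Its level in CPM, counts scaled to a common library total after TMM correction, was 231, 179 and 269 in the RD livers and 824, 1020 and 1159 in the HCD livers. Every HCD liver was far above every RD liver, with an SD of 45.4 CPM among the RD livers. Srebf1 RNA rose 4.42-fold with HCD, a log2 fold change of 2.14 ± 0.21 (SE, n = 3 per diet) with an adjusted p of 0.00407 and a 95% interval of 3.16- to 6.18-fold. It ranked 15 by p among the 13105 genes tested. The call held in all 6 fits that left out a liver, with log2 fold changes of 1.99 to 2.28 and a highest adjusted p of 0.0321. The counts sum over all Srebf1 transcripts, so SREBP1a and SREBP1c RNA are not separated, and 175 of its 5634 exon bases are shared with Rai1 on the other strand and with the microRNA gene Mir6922.

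Srebf2 (ENSMUSG00000022463, chr15:82147181-82205379, plus strand) encodes SREBP2. Its level was 102, 75.1 and 71.4 CPM with RD and 46.1, 43.4 and 33.4 CPM with HCD. The HCD livers were all below the RD livers, and the RD spread came mainly from replicate 1, the highest. Srebf2 RNA fell 2.02-fold, a log2 fold change of -1.02 ± 0.19 (SE, n = 3 per diet) with an adjusted p of 0.0296. The call was kept without HCD replicate 1 (log2 fold change -1.11, adjusted p 0.0409) and was lost when any other liver was left out: leaving out RD replicate 1, 2 or 3 gave an adjusted p of 0.128, 0.109 or 0.0525, and leaving out HCD replicate 2 or 3 gave 0.06002 or 0.0864. The direction was the same in all of these fits, with log2 fold changes from -1.12 to -0.84. No exon bases of Srebf2 are shared with another gene.

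The paralogs were compared within each library, where the scaling between libraries cancels. The ratio of Srebf1 to Srebf2 FPKM, a measure per length of gene, was 2.88, 3.04 and 4.81 in the RD livers and 22.8, 30.005 and 44.3 in the HCD livers. Srebf1 was thus the more abundant RNA in every liver, and the HCD ratios were all higher than the RD ratios. On CPM, the log2 ratio was higher with HCD by 3.15, or 8.89-fold, with an SD between livers of 0.41 with RD and 0.48 with HCD. The exact two-sided permutation test over livers gave p = 0.10, the smallest that 3 against 3 livers allow, and 0.10 after adjustment over both paralog pairs. Srebf2 made up 17.2 to 25.8% of the summed Srebf1 and Srebf2 FPKM with RD and 2.21 to 4.20% with HCD.

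**Figure D2:**
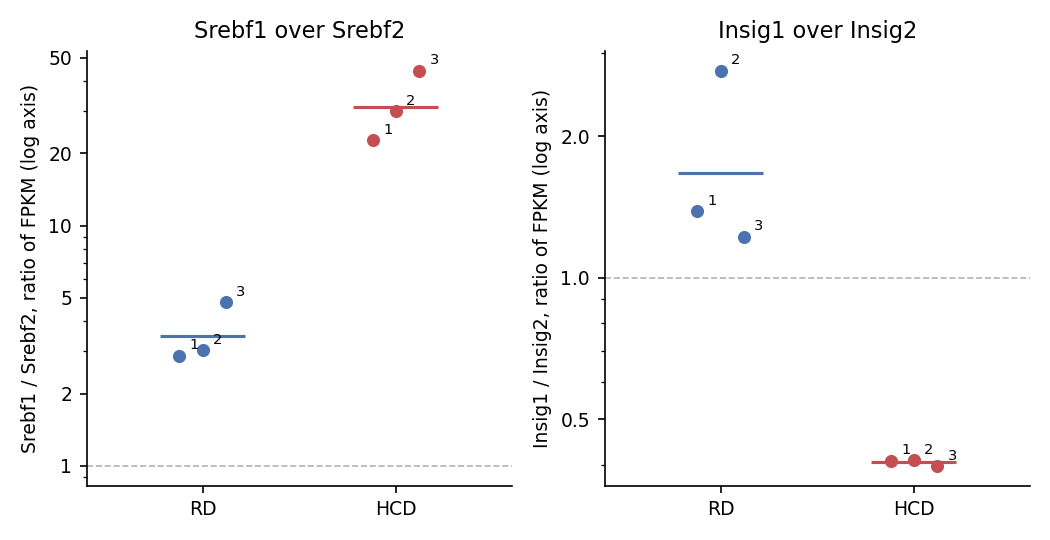
Ratio of FPKM between paralogs in each liver, Srebf1 over Srebf2 on the left and Insig1 over Insig2 on the right, on log axes of different range. Points are livers numbered by replicate, bars are geometric means, and the dashed line marks equal levels. The Srebf1 ratio is above 1 in every liver and higher with HCD, and the Insig ratio goes from above 1 in the RD livers to about 0.40 in the HCD livers.

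Scap (ENSMUSG00000032485, chr9:110333288-110384950, plus strand) encodes the escort of both SREBPs. It was at 160, 132 and 184 CPM with RD and at 96.5, 106 and 104 CPM with HCD. The HCD livers lay below all RD livers and close together, with an SD of 5.01 CPM against 26.0 with RD. The log2 fold change was -0.63 ± 0.15 (SE, n = 3 per diet), a 95% interval of 0.508 to 0.820 of the RD level, and the adjusted p of 0.0622 was not past the threshold. DESeq2 on the same counts gave a log2 fold change of -0.65 with an adjusted p of 0.00656. On the other strand, 985 of the 7443 exon bases of Scap are shared with 5830462I19Rik, and without known strand the reads of the pair cannot be told apart.

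The proteases differed less. Mbtps1 (ENSMUSG00000031835, chr8:119508156-119558735, minus strand), which encodes site-1 protease, was at 63.4, 64.6 and 67.7 CPM with RD and 65.0, 65.1 and 56.7 CPM with HCD. The ranges overlapped, and the log2 fold change of -0.067 ± 0.12 (SE, n = 3 per diet) had a 95% interval of 0.791 to 1.15 of the RD level and an adjusted p of 0.787. Its sign turned to 0.072 once a trend with gene length was removed. Mbtps2 (ENSMUSG00000046873, chrX:157535371-157598715, minus strand), which encodes site-2 protease, was the least abundant of the 7 genes, at 9.998, 8.37 and 9.42 CPM with RD and 5.16, 7.10 and 7.86 CPM with HCD. The HCD livers were all below the RD livers, HCD replicate 1 the lowest. Without HCD replicate 1 the log2 fold change was -0.31 (adjusted p 0.478). With all livers, the log2 fold change of -0.47 ± 0.23 (SE, n = 3 per diet) was not called, with an adjusted p of 0.286, and its 95% interval of 0.4998 to 1.04 of the RD level is wide. The Mbtps2 values rest on 97 to 217 reads a library, and 2867 of its 10105 exon bases are shared with Yy2 on the same strand, which makes its level uncertain.

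Insig1 (ENSMUSG00000045294, chr5:28071363-28078662, plus strand) encodes an ER anchor of SCAP. It was at 286, 416 and 263 CPM with RD and at 110, 149 and 163 CPM with HCD. No HCD liver reached the lowest RD liver, and RD replicate 2 was the highest of the 6. Insig1 RNA fell 2.29-fold, a log2 fold change of -1.20 ± 0.22 (SE, n = 3 per diet) with an adjusted p of 0.0307 and a 95% interval of 0.307 to 0.622 of the RD level. The call was lost when any of the 6 livers was left out, where omitting RD replicate 1, 2 or 3 gave an adjusted p of 0.112, 0.122 or 0.0525 and omitting HCD replicate 1, 2 or 3 gave 0.0515, 0.0611 or 0.0752. Without HCD replicate 1 the log2 fold change was -1.04. The log2 fold change stayed between -1.33 and -0.97 in these fits.

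Insig2 (ENSMUSG00000003721, chr1:121304353-121332589, minus strand) encodes the other anchor of SCAP. It was at 232, 169 and 242 CPM with RD and at 301, 408 and 460 CPM with HCD. All HCD livers were above all RD livers, with HCD replicate 1 nearest to the RD range. The log2 fold change was 0.86 ± 0.21 (SE, n = 3 per diet), or 1.82-fold with a 95% interval of 1.31- to 2.53-fold, and the adjusted p of 0.0636 did not pass the threshold. Without HCD replicate 1 it was 1.02 with an adjusted p of 0.0357, and DESeq2 on all livers gave 0.85 with an adjusted p of 0.00108. RefSeq gives Insig2 3 starts, and the counts do not separate the transcripts that begin at them.

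Within each liver, the ratio of Insig1 to Insig2 FPKM was 1.39, 2.76 and 1.22 with RD and 0.409, 0.409 and 0.398 with HCD. Insig1 was the more abundant of the pair in all RD livers and Insig2 in all HCD livers. The log2 ratio on CPM changed by -2.04 with HCD, a 4.11-fold lower ratio, and the exact two-sided permutation test gave p = 0.10, the smallest possible, and 0.10 after adjustment over both pairs. The log2 ratio had an SD of 0.63 between RD livers and of 0.023 between HCD livers, although the HCD livers differed in the level of each gene, from 53.4 to 79.2 FPKM for Insig1 and from 131 to 199 FPKM for Insig2. Without RD replicate 2, which had the highest ratio, the change was -1.68.

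The summed levels of each pair, and their ratio to Scap, were examined after the single genes had been seen. The sum of Insig1 and Insig2 was 232, 263 and 231 FPKM with RD and 184, 239 and 278 FPKM with HCD. The diets overlapped in this sum, which was 242 ± 18.0 FPKM with RD and 234 ± 47.2 FPKM with HCD (SD, n = 3 each, exact two-sided permutation p = 0.90). Its makeup differed, with Insig1 at 58.1, 73.4 and 55.0% of the sum in the RD livers and at 29.0, 29.1 and 28.5% in the HCD livers. The sum of Srebf1 and Srebf2 was 75.8 ± 13.5 FPKM with RD and 272 ± 42.5 FPKM with HCD (SD, n = 3 each), 3.59-fold higher, with the ranges apart and an exact permutation p of 0.10, the smallest possible. The FPKM of all genes totalled 613897 to 657843 in the RD libraries and 635270, 699921 and 892704 in HCD replicates 1, 2 and 3. Both sums therefore depend on the FPKM scale, and the overlap of the Insig sums was not examined on another scale. Ratios within a liver do not depend on it.

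Set against the escort, the 2 SREBP RNAs together were 2.58, 2.38 and 2.34 times the Scap FPKM in the RD livers and 11.8, 13.2 and 15.0 times in the HCD livers. This ratio was 5.47-fold higher with HCD (exact permutation p = 0.10), and the ranges did not meet. The summed Insig FPKM was 7.43, 10.3 and 6.26 times that of Scap with RD and 9.41, 11.6 and 13.2 times with HCD, and these ranges overlapped (exact permutation p = 0.20). After adjustment over the 4 sums and ratios, the p was 0.20 for both SREBP measures, 0.27 for Insig over Scap and 0.90 for the Insig sum. These are amounts of RNA, and protein was not measured in these files.

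**Figure D3:**
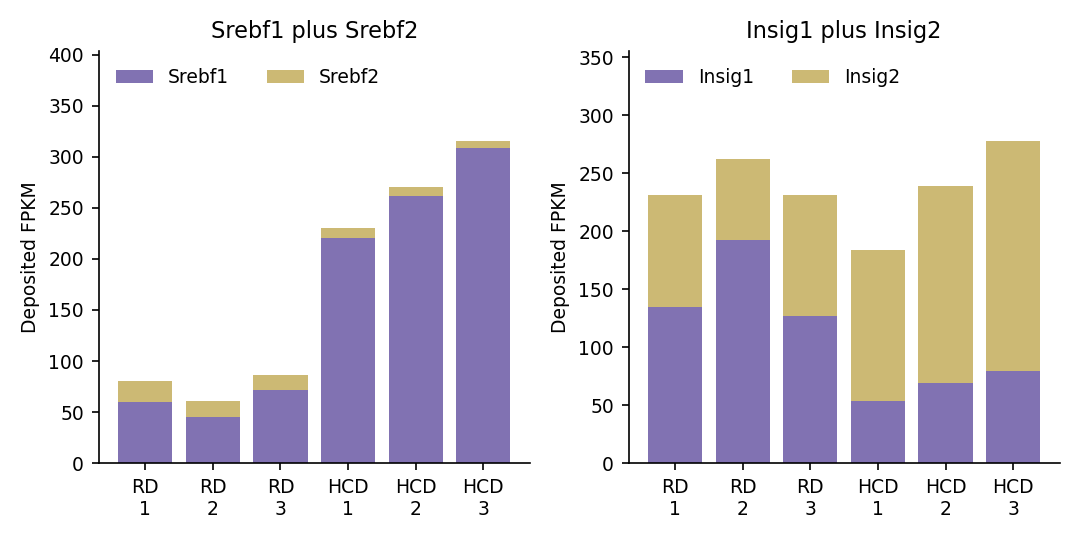
Stacked FPKM of the paralogs in each of the 6 livers, Srebf1 with Srebf2 on the left and Insig1 with Insig2 on the right, on axes that start at 0 and differ in range. The SREBP stack is taller in every HCD liver and nearly all Srebf1, and the Insig stacks overlap in height (184 to 278 FPKM with HCD, 231 to 263 with RD) while the Insig1 part is smaller with HCD. Heights depend on the FPKM scale, whose total over all genes differed between libraries.

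The order of the 7 genes by FPKM changed with the diet. With RD the means ran from Insig1 (152 ± 35.9 FPKM, SD, n = 3) through Insig2 (90.3 ± 18.0), Srebf1 (58.9 ± 13.0), Scap (31.2 ± 5.75), Srebf2 (16.9 ± 3.36) and Mbtps1 (9.05 ± 0.483) to Mbtps2 (1.34 ± 0.134). Among neighbours in this order only the ranges of Insig2 and Srebf1 overlapped, and Insig2 was above Srebf1 within all 3 livers. With HCD the order was Srebf1 (264 ± 43.9 FPKM), Insig2 (166 ± 34.2), Insig1 (67.4 ± 13.0), Scap (20.4 ± 0.759), Mbtps1 (8.77 ± 0.630), Srebf2 (8.46 ± 1.38) and Mbtps2 (0.984 ± 0.201). Srebf1 thus moved to the top of the order, and the ranges of Mbtps1 and Srebf2 overlapped, with Mbtps1 above Srebf2 in 2 of the 3 livers.

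The genes most like each paralog in their pattern over the 6 livers were found by the root mean square difference in log2 CPM, centred on each gene's mean, among 8810 genes that averaged 5 CPM or more. Nearest to Srebf1 were Fabp2 (0.18), Inmt (0.20) and Gstm2-ps1 (0.31), and near to Srebf2 were Cldn14 (0.13) and Lrig1 (0.13). Nearest to Insig1 were Zkscan3 (0.15), Stat2 (0.15) and Pdia4 (0.18), and nearest to Insig2 were Hnmt (0.091), Alg14 (0.10) and Mrpl58 (0.10). Fabp2, which encodes an intestinal type of fatty acid-binding protein, was at 41.1, 27.8 and 35.0 CPM with RD and 112, 134 and 145 CPM with HCD, with all HCD livers above all RD livers, as for Srebf1. Hnmt, a histamine methyltransferase gene, was at 18.0, 14.6 and 19.2 CPM with RD and 24.2, 32.0 and 32.5 CPM with HCD. A small difference says only that the values moved alike over 6 livers, most of it between the diets.

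Known targets of the factors were described from lists written with earlier results of these data known, each by its counts and median beside the median log2 fold change of 0.0074 over all genes tested. Of 22 sterol synthesis and uptake genes, the classical targets of SREBP2, 21 were called lower with HCD and none higher, against 3.27% of all genes called, with a median log2 fold change of -1.74. Without RD replicate 1, 11 were called, and 14 to 19 with another liver left out. Over all genes tested, 36 of 13380 were called without RD replicate 1, and 51 to 335 genes with another liver left out. The largest falls were of Fdps, Sqle and Mvd.

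Sqle, squalene epoxidase, went from 112 ± 25.8 to 5.57 ± 1.599 CPM (log2 fold change -4.33, adjusted p 0.000736), and Mvd, mevalonate diphosphate decarboxylase, from 34.6 ± 11.2 to 1.82 ± 0.900 CPM (-4.22, adjusted p 0.00295), and both stayed called with any 1 liver left out. Fdps, farnesyl diphosphate synthase, had 53 to 182 reads in the RD libraries and 3 to 4 in the HCD libraries, a ratio of RD to HCD of 25.4 with a 95% counting interval of 13.6 to 53.5 (adjusted p 0.0130). The Fdps call was lost without RD replicate 1 or 2 or HCD replicate 3, with a highest adjusted p of 0.0649. Ebp, a sterol isomerase gene, was the one member of the list not called, at 257 ± 39.3 CPM with RD and 197 ± 28.7 with HCD (adjusted p 0.252). The falls of these targets were larger than that of Srebf2 itself at the median, -1.74 against -1.02 on the log2 scale, a difference that was not tested.

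Of 20 lipogenic genes, the classical targets of SREBP1c, 19 could be tested, 4 were called lower and none higher (21.1%, against 3.27% of all genes tested), and the median log2 fold change was -0.31. Acacb, the acetyl-CoA carboxylase at mitochondria, had the largest fall, from 71.2, 88.5 and 110 CPM with RD to 23.1, 30.1 and 23.9 CPM with HCD (log2 fold change -1.81 ± 0.19, adjusted p 0.00523), and stayed called with any 1 liver left out. Acss2, an acetyl-CoA synthetase (log2 fold change -1.48, adjusted p 0.0193), Fads1, a fatty acid desaturase (-1.12, adjusted p 0.0453), and Gpam, which starts glycerolipid synthesis (-1.06, adjusted p 0.0130), fell as well. The Acss2 call was lost without RD replicate 1 or HCD replicate 3, that of Gpam without RD replicate 1 or 2 or HCD replicate 3, and that of Fads1 without any liver but HCD replicate 1, with highest adjusted p of 0.0903, 0.0724 and 0.133. Without RD replicate 1, 1 lipogenic gene was called, and 2 were without RD replicate 2 or HCD replicate 3. These 3 fits called 36 of 13380, 51 of 13841 and 103 of 13804 of all genes tested. Fasn, fatty acid synthase, was at 535, 677 and 475 CPM with RD and 373, 393 and 508 CPM with HCD, with overlapping ranges (log2 fold change -0.40, adjusted p 0.275). Scd1, a stearoyl-CoA desaturase gene named after its value was seen, was at 4646, 6522 and 10183 CPM with RD and 8871, 14692 and 13982 CPM with HCD, with overlapping ranges. Its log2 fold change of 0.81 was not called with edgeR (adjusted p 0.199), and it was the 1 gene of the list that DESeq2 called higher. Thus while Srebf1 RNA rose 4.42-fold, edgeR called no gene of this list higher.

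LXR, encoded by Nr1h3 and Nr1h2, is activated by oxysterols. Of 12 LXR receptor and target genes, 3 were called higher and 1 lower (33.3%, against 3.27% of all genes tested), and the median log2 fold change was 0.34. Abcg8 and Abcg5, which pair to export sterols into bile, rose from 78.5 ± 30.3 to 489 ± 28.8 CPM and from 53.0 ± 28.3 to 356 ± 55.9 CPM (log2 fold changes 2.64 and 2.74, adjusted p 0.00407 and 0.0104). The Abcg8 call held with any 1 liver left out, and that of Abcg5 was lost without RD replicate 1 (adjusted p 0.0617). Abcg1, a cholesterol exporter, rose from 4.13 ± 1.64 to 17.9 ± 7.13 CPM (2.10, adjusted p 0.0258), and Rxra, the partner receptor of LXR, fell from 516 ± 45.0 to 321 ± 19.9 CPM (-0.68, adjusted p 0.0449). The Abcg1 call was lost without RD replicate 1 or 2 or HCD replicate 2 or 3, and the Rxra call without any one of the 6 livers, with highest adjusted p of 0.128 and 0.193. Without HCD replicate 1 the log2 fold change of Rxra was -0.63 (adjusted p 0.0673). Nr1h3 itself, at 100 ± 7.07 CPM with RD and 112 ± 11.3 CPM with HCD, was not called (log2 fold change 0.15, adjusted p 0.543, and 0.23 without HCD replicate 1, adjusted p 0.360). Without RD replicate 1, 1 gene of this list was called, and 2 were without RD replicate 2, HCD replicate 2 or HCD replicate 3. Of all genes tested, these fits called 36 of 13380, 51 of 13841, 333 of 13811 and 103 of 13804.

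**Figure D4:**
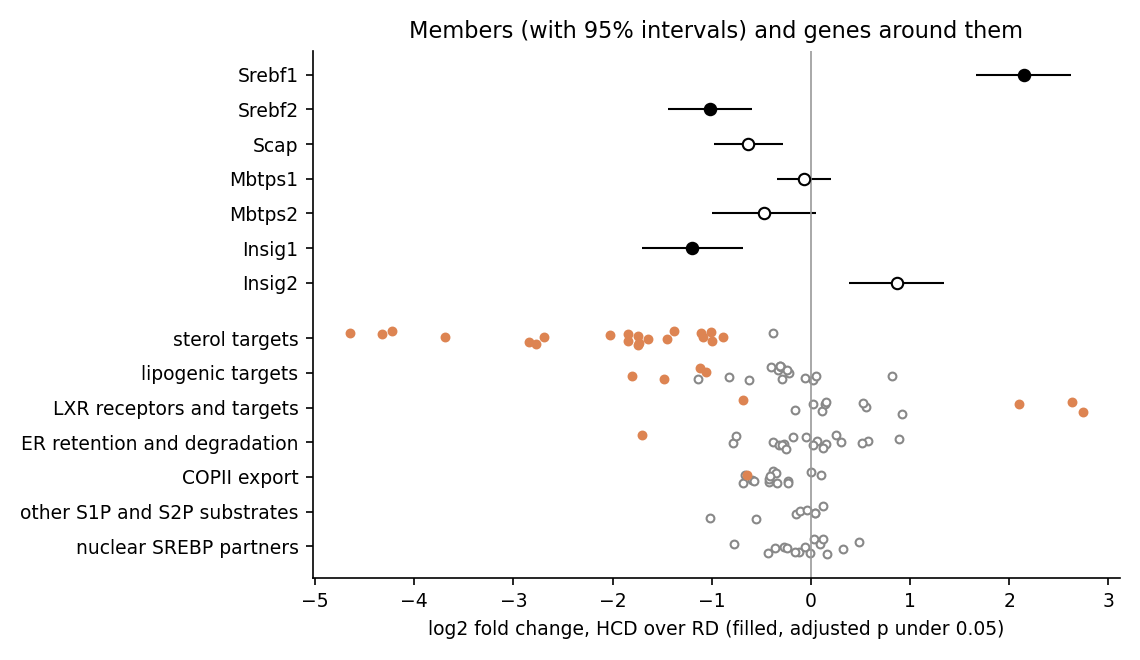
Log2 fold change, HCD over RD, of the 7 genes (top, lines are 95% intervals) and of each gene in the 7 lists around them (below, points spread vertically for legibility). Filled points have an adjusted p under 0.05. The sterol targets lie at or below -0.38, and the lipogenic targets lie mostly below 0 while Srebf1 is at 2.14.

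Proteins that act on SREBP, SCAP or INSIG in the ER include ubiquitin ligases that degrade INSIG1 or SCAP. Of 19 such genes tested of 20 listed, edgeR called 1 lower and none higher (5.26%, against 3.27% of all genes tested), with a median log2 fold change of -0.051. RD and HCD ranges were apart for 10 of the 19, against 27.6% of all genes. Before adjustment 3 passed a p of 0.05 with higher values and 3 with lower, against 20.9% of all genes. The summed level was 2707, 2720 and 2656 CPM with RD and 2164, 2482 and 2517 CPM with HCD, with the ranges apart. DESeq2 called 2 lower, Syvn1 and Erlin1, and 1 higher, Spring1, against 7.2% of all genes. The 1 called by edgeR was Syvn1, an ER ubiquitin ligase, at 346, 370 and 226 CPM with RD and 74.4, 126 and 87.9 CPM with HCD (log2 fold change -1.71 ± 0.25, adjusted p 0.0168). Its call was lost without RD replicate 1 or 2 or HCD replicate 3, with a highest adjusted p of 0.0875. Without HCD replicate 2 the list had 2 called genes, against 333 of 13811 genes tested in that fit. Rnf145, a ligase of SCAP, was at 21.3 ± 3.34 CPM with RD and 31.7 ± 10.1 with HCD (0.58, adjusted p 0.205). HCD replicate 1 was the highest at 43.4 CPM, the other HCD livers were at 25.7 and 25.9 CPM, and without HCD replicate 1 the log2 fold change was 0.28 (adjusted p 0.420). Spring1, listed as 2410131K14Rik, which encodes a protein needed for site-1 protease maturation, was at 6.20, 6.56 and 7.64 CPM with RD and 14.3, 13.0 and 10.4 CPM with HCD, with the ranges apart, and was not called by edgeR (0.88, adjusted p 0.0564).

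Of 15 genes of COPII export, the step that carries SCAP out of the ER, 1 was called lower (6.67%, against 3.27% of all genes tested), 14 had a log2 fold change below 0 and the median was -0.42. Before adjustment, 9 passed a p of 0.05 with lower values and none with higher, against 20.9% of all genes tested in either direction. The 1 called was Sec16b, which helps form ER exit sites, at 99.9 ± 5.06 CPM with RD and 63.9 ± 4.32 CPM with HCD (-0.64, adjusted p 0.0303), and its call was lost when any of the 6 livers was left out, with adjusted p from 0.0576 to 0.141. Without HCD replicate 1 its log2 fold change was -0.59 (adjusted p 0.0576). The summed level of the list was 1521, 1509 and 1329 CPM with RD and 1015, 1263 and 1064 CPM with HCD, with the ranges apart.

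None of 8 tested genes of 9 listed for other substrates of the site-1 and site-2 proteases was called, against 3.27% of all genes, with a median of -0.074, and 2 passed a p of 0.05 before adjustment, both lower, against 20.9% of all genes. DESeq2 called 2 genes of this list, against 7.2% of all genes. Without HCD replicate 1 edgeR called 1, against 335 of 13230 genes tested in that fit. None of 15 genes for nuclear partners of SREBP was called under any of 14 alternatives, with a median of -0.057, and before adjustment 1 passed a p of 0.05 with higher values and 2 with lower, counts near the 3.27% and 20.9% of all genes.

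Other differences between the diet groups moved alongside. Of 14 tested genes of 16 listed for the circadian clock, which also times Srebf1 in liver, 1 was called (7.14%, against 3.27% of all genes tested). RD and HCD ranges were apart for 9 of the 14, against 27.6% of all genes. Before adjustment 4 passed a p of 0.05 with higher values and 5 with lower, against 20.9% of all genes. DESeq2 called 4 clock genes higher and 2 lower, against 7.2% of all genes, and the time of collection is not given. Of 12 genes that respond to feeding and fasting none was called, against 3.27% of all genes. Before adjustment 1, Angptl4, passed a p of 0.05 with higher values, against 20.9% of all genes, and it was called by DESeq2. The list had 10 of 12 log2 fold changes above 0 and a median of 0.46 with all livers, and 6 of 12 above 0 and a median of -0.023 without HCD replicate 1. That liver was the highest of the 6 in Pdk4, a fasting-induced kinase gene, at 41.2 CPM against 6.27 and 4.05 in the other HCD livers and 3.17 to 9.16 with RD. It was also the highest in Igfbp1, at 347 CPM against 69.3 and 131, and in Irs2, an insulin receptor substrate gene, at 90.8 CPM against 25.3 and 18.5. Without it the log2 fold change of Pdk4 went from 1.32 to -0.43, that of Igfbp1 from 1.25 to 0.38 and that of Irs2 from 0.65 to -0.39, none of them called. Srebf1 and Insig2 without this liver had log2 fold changes of 2.27 and 1.02.

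Markers of hepatocytes were abundant in every liver, 84667 to 118139 CPM in sum with RD and 92256 to 132568 CPM with HCD. None of 6 was called, against 3.27% of all genes tested. Before adjustment 1 passed a p of 0.05 with higher values (20.9% of all genes), and DESeq2 called 1 (7.2% of all genes).

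Markers of Kupffer cells, the liver's macrophages, had a log2 fold change above 0 for 10 of 10 genes, none called by edgeR (3.27% of all genes), 5 at a p of 0.05 or less before adjustment (20.9% of all genes) and 4 called higher by DESeq2 (7.2% of all genes), with a summed level of 168 to 277 CPM with RD and 230 to 506 CPM with HCD. The summed levels of sinusoidal endothelial (158 to 273 CPM with RD, 224 to 335 with HCD), stellate (347 to 397 and 386 to 620), leukocyte (7.21 to 12.2 and 11.0 to 17.1) and cholangiocyte markers (37.4 to 91.9 and 64.6 to 98.1) overlapped between diets for each cell type but were low beside those of hepatocytes. Log2 fold changes were above 0 for 8 of 10 endothelial, 10 of 10 stellate, 4 of 4 leukocyte and 4 of 5 cholangiocyte markers, with medians of 0.29, 0.50, 0.42 and 0.60, beside 0.84 for Kupffer cells. Without HCD replicate 1 they were above 0 for 6, 10, 2 and 5 of these and for 9 Kupffer cell markers, with medians of 0.11, 0.28, 0.39, 0.46 and 0.62. None of the 10 endothelial, 10 stellate, 4 (of 10) leukocyte and 5 (of 6) cholangiocyte markers tested was called by edgeR, against 3.27% of all genes. Before adjustment 2 of 10 endothelial and 2 of 10 stellate markers passed a p of 0.05, against 20.9% of all genes. DESeq2 called 2 endothelial markers, against 7.2% of all genes, and limma called none, while no marker of any list was at 0 in all livers. The part of sex, of clock and feeding genes and of cell makeup in the differences of the 7 genes was not tested.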

How the data were processed

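Liver RNA of 3 RD and 3 HCD mice was sequenced, 1 library per mouse, and diets and replicate numbers came from the sample labels. The authors deposited read counts per gene, whole numbers without normalization, and FPKM, whose divisor is not stated. Per the labels, the submitters' processing notes name STAR, HTSeq, DESeq2, edgeR and the build GRCm39, without versions or roles, and library kit and strand are not given in the sources used here. The deposited fold changes and p-values of the authors' own comparison were not used.

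All 6 livers entered 1 fit of the counts (edgeR 4.0.16, R 4.3.3): filterByExpr by diet left 13105 of 20673 genes, TMM factors were 0.886 to 1.07, and a quasi-likelihood F test of diet without covariates was adjusted by Benjamini-Hochberg over all genes tested and called at an adjusted p under 0.05. The 95% intervals of fold changes use the test's own t distribution. Paralog ratios were compared on log2 of CPM plus 0.5 with exact two-sided permutation tests over the 20 assignments of 3 of the 6 livers. The depth was 13771630 to 23129576 counts, the biological coefficient of variation was 27.8%, and intervals on pooled reads cover counting error only. The labels do not say that the livers were collected independently, so p-values measure the spread between these livers. Chi-square comparisons of counts showed no pair of livers of 1 diet within sampling noise.

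Positions and exon overlaps are from GENCODE M21 on GRCm38, joined by Ensembl identifier, since the files hold no coordinates. Promoter windows of all 7 genes are from RefSeq on GRCm38.p6. The genes, lists and tests were chosen with earlier results of these data known. Named are the 7 genes, the 3 genes most like each paralog (symbols starting Gm or ending Rik left out), the called genes of each list (beyond 6, the 3 largest rises and falls), and Fasn, Nr1h3, Rnf145 and Spring1, and some genes that this rule takes are not reported here; Ebp, Erlin1, Scd1, Angptl4, Pdk4, Igfbp1 and Irs2 were added after their values were seen. The fits were tested on simulated counts with known fold changes. Alternatives were DESeq2 1.42.0, RLE factors, library sizes alone, no filter, limma 3.58.1 (trend) on log2 of FPKM plus 1 or 0.1, removal of a gene length trend (loess, span 0.5), an unadjusted p of 0.05, a replicate block, and each liver left out. Figures were drawn with Python 3.11.15 and matplotlib 3.10.9.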

Additional observations from a re-analysis of the deposited data

How the results depend on the processing

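Srebf1 stayed called in all 14 alternatives (log2 fold change 1.99 to 2.28), and Mbtps2 in none. Srebf2 was not called with limma on FPKM plus 1 (-0.91) or plus 0.1 (-0.98), nor Insig1 (-1.15 and -1.16). DESeq2 called Scap (-0.65) and Insig2 (0.85), and so did edgeR without the filter for Insig2 (0.85). Mbtps1 turned to 0.072 after removal of the gene length trend, with an adjusted p of 0.777. With 1 liver left out, log2 fold changes ran from -1.12 to -0.84 for Srebf2, -0.75 to -0.51 for Scap, -0.11 to -0.013 for Mbtps1, -0.61 to -0.31 for Mbtps2, -1.33 to -0.97 for Insig1 and 0.71 to 1.02 for Insig2, and paralog ratios from 2.90 to 3.39 for Srebf1 over Srebf2 and -2.27 to -1.68 for Insig1 over Insig2. Of the 7 genes DESeq2 called 5, limma 1 with either pseudocount, an unadjusted p of 0.05 gave 5, and leaving out a liver 1 to 3.

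Of the lists, DESeq2 called 7 lipogenic, 3 ER retention (1 higher and 2 lower), 4 COPII and 2 protease substrate genes. Library sizes alone gave 2 ER retention and 2 COPII genes, no filter 2, 2 and 1 protease substrate gene, and the length correction 2 ER retention and 0 COPII genes. limma gave 2 lipogenic genes with FPKM plus 1 and 0 COPII genes with either pseudocount. Leaving out a liver gave 11 to 19 sterol, 1 to 4 lipogenic, 0 to 2 ER retention, 0 to 1 COPII, 0 to 1 protease substrate and 1 to 3 LXR genes. Over all genes, 428 were called, against 995 with DESeq2, 417 with RLE factors, 319 with library sizes alone, 649 without the filter, 219 and 275 with limma on FPKM plus 1 and 0.1, 251 after the length correction and 36 to 335 without 1 liver.

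The replicate numbers are shared by the diets but do not pair the livers: deviations of same-numbered livers correlated across genes at -0.084, 0.12 and -0.030. With the replicate number as a block, 136 genes were called, Insig1 was not called (-1.19, adjusted p 0.0572), 2 of the 7 genes were called, and 0 COPII, 1 protease substrate and 2 LXR genes. The replicate block left the paralog ratios at 3.15 and -2.04 with p = 0.25, the smallest an exact sign-flip permutation test of 3 pairs gives. The causes of these changes were not tested. Mbtps2 had the fewest reads of the 7 genes, and 3 livers per diet limit every test.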
